A study of Homo sapiens with 2 samples.

Results

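The RAB genes encode small GTPases that direct vesicle and granule traffic. All genes whose symbol in the array annotation was RAB followed by a number and at most 1 letter were taken, which gave 59 genes of the 17280 named on the arrays. The 23 genes on the first array (chIP1) and the 36 on the second (chIP2) were covered by 1682 probes, and all of these probes passed the filters. The annotation uses some older symbols: RAB7, RAB2, RAB19B and RAB39 are now RAB7A, RAB2A, RAB19 and RAB39A.

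Chromatin from untreated Meg-01 cells, a human megakaryoblastic leukemia cell line, was pulled down either with the C-20 antibody against GATA1, a zinc finger factor that drives erythroid and megakaryocytic genes (the IP), or with normal goat IgG (the background). IP DNA was labeled with Cy5 and IgG DNA with Cy3, and both were hybridized together to 2 promoter arrays that carry different probes. Each probe was therefore read in 1 hybridization, with no replicate, no dye swap and no cells lacking GATA1, so no test and no error between samples could be given. The arrays measure DNA in the pull-downs and not transcripts, so the cell type could not be checked against markers.

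RAB proteins switch between a GDP-bound form in the cytosol and a GTP-bound form on membranes, where they recruit the effectors that move, tether and fuse vesicles. Guanine nucleotide exchange factors turn them on and GTPase-activating proteins turn them off. Megakaryocytes build the alpha and dense granules of platelets, and RAB27A and RAB27B are known for their part in granule biogenesis and secretion, while RAB32 and RAB38 serve the making of lysosome-related organelles.

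Each probe gave log2(IP/IgG), centered so that the array median was 0, and these values were averaged over windows of 3 adjacent probes no more than 1000 bp apart. Windows that averaged 1 or more (2-fold toward the IP) are called enriched, and windows that averaged -1 or less (2-fold toward the IgG) are called depleted. A gene owned each window that held at least 1 of its probes. Under these rules 58 of the 59 RAB genes had a window, 1497 windows in all, and RAB6C with its 3 probes had none. The median RAB gene had 23.5 windows and the median of all genes was 23. Window positions carry the coordinates of the array annotation, whose genome build is not given in the sources used here.

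The promoters below are examples of GATA letters in genes that were high at their start and in genes that were lower there. They do not stand for all RAB promoters, and no lower gene without a match is shown. They are RefSeq promoters of GRCh38.p14, from 250 bases before to 50 bases after the start, and capitals mark a GATA match on either strand. The letters searched were AGATAA and its variant with a final G, AGATAG, as well as the same letters with T in the first place, TGATAA and, with a final G, TGATAG. These forms share the GATA core, and a match on the other strand is printed as its reverse complement. RAB11B, RAB10, RAB7 and RAB3C were among the highest RAB genes within 500 bp of the start, whereas RAB3A (start mean 0.44) and RAB3B (0.01) were lower. RAB3A was still above the median start mean of the RAB genes, 0.34. The promoters lie at chr19:8390110-8390409 on the plus strand (RAB11B), chr2:26033834-26034133 on the plus strand (RAB10), chr3:128725933-128726232 on the plus strand (RAB7), chr5:58582825-58583124 on the plus strand (RAB3C), chr19:18203993-18204292 on the minus strand (RAB3A) and chr1:51990651-51990950 on the minus strand (RAB3B).
RAB11B: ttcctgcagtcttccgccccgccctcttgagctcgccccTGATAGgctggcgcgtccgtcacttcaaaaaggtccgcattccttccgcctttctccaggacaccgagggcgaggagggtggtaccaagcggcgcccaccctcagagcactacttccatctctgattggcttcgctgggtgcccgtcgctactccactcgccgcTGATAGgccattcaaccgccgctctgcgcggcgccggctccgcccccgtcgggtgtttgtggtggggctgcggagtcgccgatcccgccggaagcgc
RAB10: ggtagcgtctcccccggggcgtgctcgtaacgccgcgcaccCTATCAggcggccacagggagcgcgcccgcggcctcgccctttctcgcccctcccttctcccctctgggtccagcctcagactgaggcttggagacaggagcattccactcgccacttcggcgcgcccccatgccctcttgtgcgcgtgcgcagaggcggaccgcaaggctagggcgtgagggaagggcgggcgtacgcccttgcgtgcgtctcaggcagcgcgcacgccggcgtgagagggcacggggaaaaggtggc
RAB7: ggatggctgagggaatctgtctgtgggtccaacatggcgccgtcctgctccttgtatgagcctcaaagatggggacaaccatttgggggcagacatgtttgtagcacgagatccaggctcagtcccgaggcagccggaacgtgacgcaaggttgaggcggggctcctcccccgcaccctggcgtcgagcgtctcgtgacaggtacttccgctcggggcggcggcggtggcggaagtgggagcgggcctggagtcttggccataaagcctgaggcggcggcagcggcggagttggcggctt
RAB3C: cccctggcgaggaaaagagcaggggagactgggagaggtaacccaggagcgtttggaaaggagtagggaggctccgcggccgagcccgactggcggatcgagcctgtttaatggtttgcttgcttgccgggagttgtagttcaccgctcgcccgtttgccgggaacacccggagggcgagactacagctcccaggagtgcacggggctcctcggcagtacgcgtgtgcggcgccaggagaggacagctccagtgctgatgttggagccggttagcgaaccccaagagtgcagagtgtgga
RAB3A: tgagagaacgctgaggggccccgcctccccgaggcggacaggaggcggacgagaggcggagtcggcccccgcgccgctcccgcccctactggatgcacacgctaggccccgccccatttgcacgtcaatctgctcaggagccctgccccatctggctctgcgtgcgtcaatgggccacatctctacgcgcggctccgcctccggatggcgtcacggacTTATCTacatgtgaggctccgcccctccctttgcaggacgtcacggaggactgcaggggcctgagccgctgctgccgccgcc
RAB3B: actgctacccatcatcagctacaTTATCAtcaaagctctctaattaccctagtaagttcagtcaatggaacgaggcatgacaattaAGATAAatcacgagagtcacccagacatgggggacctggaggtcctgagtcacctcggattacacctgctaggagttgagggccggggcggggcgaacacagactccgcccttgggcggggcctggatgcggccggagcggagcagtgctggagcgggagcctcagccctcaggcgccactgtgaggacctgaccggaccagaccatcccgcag
RAB11B held 2 matches and RAB10 held 1, whereas RAB7 and RAB3C held none in these letters. RAB3A held 1 match and RAB3B held 2.

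The first question was how often a RAB gene carried GATA1 IP signal. An enriched window was found in 37 of the 58 RAB genes (63.8%), against 57.1% of all 17054 genes with a window. A depleted window was found in 31 RAB genes (53.4%), against 52.9% of all genes, so calls toward the IgG were about as common as over the whole array. Among genes with as many windows as the middle of the RAB range (16.25 to 31 windows), 19 of 30 RAB genes (63.3%) and 57.9% of all genes were enriched. The median of the highest window per gene was 1.22 for RAB genes and 1.09 for all genes, and the median of the lowest window was -1.06 and -1.05. By these gene counts and medians the RAB genes as a group were close to the array background in both directions. On the IP side the gap varied with the setting, as given below.

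The same count over windows set the RAB genes slightly further from the rest. Of the 1497 RAB windows, 162 (10.8%) were enriched and 117 (7.82%) were depleted, whereas over all windows 7.62% were enriched and 9.65% were depleted. After another background correction (normexp), 5.54% of RAB windows (83) were enriched and 2.14% (32) depleted, and over all windows these shares were 3.25% and 2.50%, so enriched calls also came to outnumber depleted ones over the whole array. Brightness moved with these calls: 84 of the 162 enriched windows and 24 of the 117 depleted ones were above the median intensity of their array. Of the 1218 RAB windows between the limits 768 were above it, so both kinds of called windows were dimmer than uncalled ones. The median intensity percentiles were 53.3 (enriched), 30.4 (depleted) and 61.3 (between), and the part of low signal in the calls was not tested. When windows below that median were left out, 27 of 55 RAB genes (49.1%) kept an enriched window, against 34.8% of all genes.

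**Figure D1:**
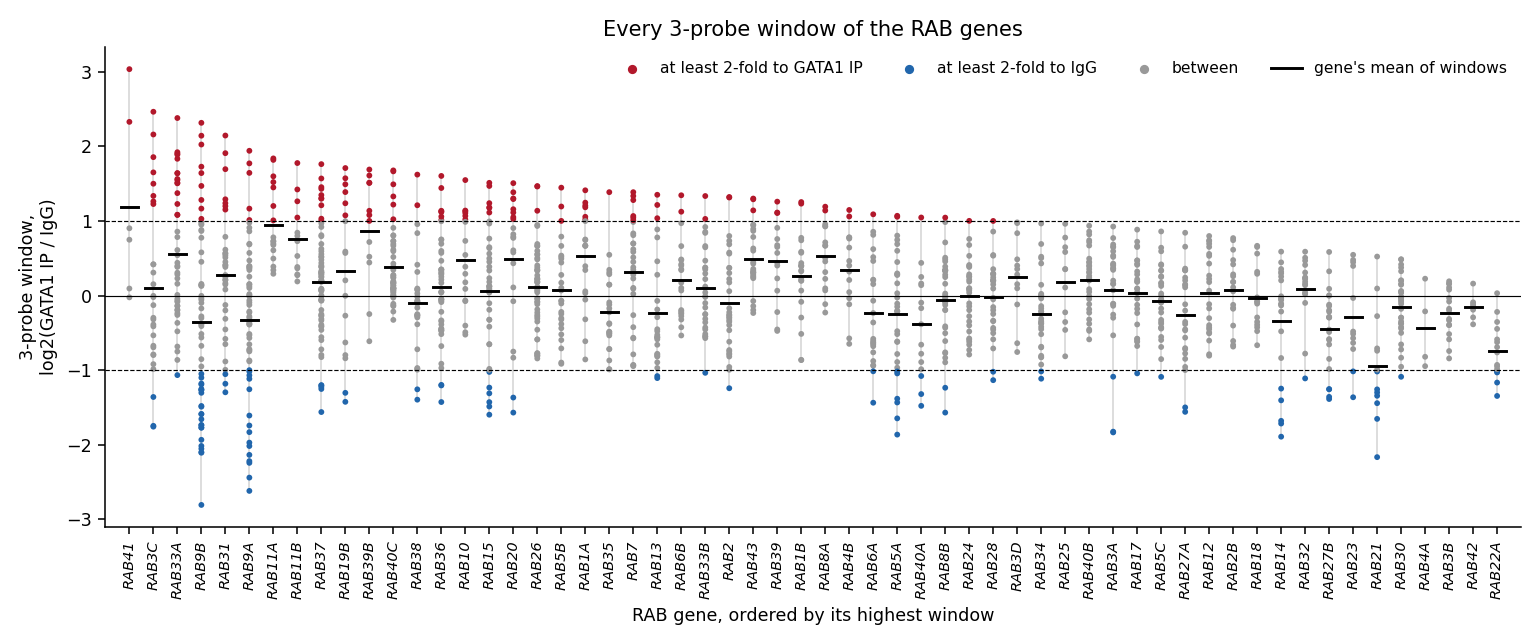
Each column is 1 of the 58 RAB genes, ordered by its highest window, each point is a 3-probe window (y axis, log2 of GATA1 IP over IgG), black bars are the mean of the gene's windows, and dashed lines mark the 2-fold limits at 1 and -1. The highest windows run from 3.04 in RAB41 to 0.03 in RAB22A, and RAB9B and RAB9A reach far to both sides.

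The RAB genes fell into 4 classes. Enriched windows without depleted ones were found in 18 genes (31.0%, against 25.8% of all genes), RAB1A, RAB1B, RAB4B, RAB5B, RAB6B, RAB7, RAB8A, RAB10, RAB11A, RAB11B, RAB24, RAB26, RAB35, RAB39, RAB39B, RAB40C, RAB41 and RAB43. Both kinds were found in 19 genes (32.8%), which were RAB2, RAB3C, RAB5A, RAB6A, RAB8B, RAB9A, RAB9B, RAB13, RAB15, RAB19B, RAB20, RAB28, RAB31, RAB33A, RAB33B, RAB36, RAB37, RAB38 and RAB40A. Over all genes the share with both kinds was 31.3%. Only depleted windows were found in 12 genes (20.7%, against 21.6% of all genes), RAB3A, RAB5C, RAB14, RAB17, RAB21, RAB22A, RAB23, RAB27A, RAB27B, RAB30, RAB32 and RAB34. Neither was found in RAB2B, RAB3B, RAB3D, RAB4A, RAB12, RAB18, RAB25, RAB40B and RAB42, which makes 9 genes (15.5%, against 21.3% of all genes). The threshold split near neighbors, since RAB24 and RAB28 were called at 1.00 while RAB3D at 0.98 and RAB34 at 0.97 were not. Some windows could not be assigned to a RAB gene alone, since 10 probes of RAB34 are also annotated to RPL23A, 9 of RAB5A to EFHB and 4 of RAB15 to FNTB.

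Among the RAB genes of regulated secretion, which release granules and synaptic vesicles, 3 of 8 had an enriched window (37.5%, against 57.1% of all genes) and 5 of 8 had a depleted one (62.5%, against 52.9%). The median of their highest windows was 0.95, lower than the 1.22 of all RAB genes. RAB3C, a RAB3 isoform best known from neurons, stood apart. Its highest window, in the promoter at -450 bp from the start (chromosome 5, 57914103 to 57914402), averaged 2.47, with single probes from 2.03 to 3.29. The center probe of this window had processed intensities of 10016.5 in the IP and 2375.34 in the IgG. It was 1 of 8 enriched windows that formed a single stretch of 1602 bp from -1354 to -14 bp (center probes). Windows on both sides of RAB3C's stretch were lower, and 3 of them, between 1528 and 1883 bp downstream, were depleted, the lowest at -1.76 being brighter than only 1.10% of the windows of its array.

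RAB37, which marks secretory granules of mast cells, had its highest window of 1.76 inside the gene, 9896 bp from the start, with probes from 1.54 to 1.88, and 10 of its 68 windows were enriched. RAB26, a RAB of secretory granules, reached 1.47 in the promoter at -1191 bp from the start, and 15 of its probes are also annotated to PKD1. These windows lay away from the start, where RAB37 averaged 0.19 and RAB26 averaged 0.34. In windows above the median intensity the highest was 1.45 in RAB37 and 0.69, below the limit, in RAB26.

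The other members of the secretion group did not reach the 2-fold limit. RAB27A, which docks lysosome-related organelles at the plasma membrane, had a highest window of 0.84, whose probes spread from -0.26 to 2.03, and a lowest window of -1.56. RAB27B, its paralog in platelet dense granule secretion, had a highest window of 0.58 and a mean of -0.45 over 23 windows, of which 4 were depleted. The lowest window of RAB27B, -1.39 at 618 bp downstream of the start, had IP and IgG intensities of 817.434 and 2252.92 at its center probe. Both RAB27 genes thus had a mean below 0 (-0.27 in RAB27A), and neither had an enriched window.

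RAB3D, the RAB3 isoform of exocrine and hematopoietic granules, reached 0.98 and had no window past either limit. RAB3A, the RAB3 isoform of synaptic vesicles, reached 0.93 and had a lowest window of -1.84. RAB3B, a RAB3 isoform of endocrine and epithelial cells, stayed between -0.84 and 0.19. The 4 RAB3 genes therefore ranged from the second highest window of all RAB genes to the third lowest maximum.

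**Figure D2:**
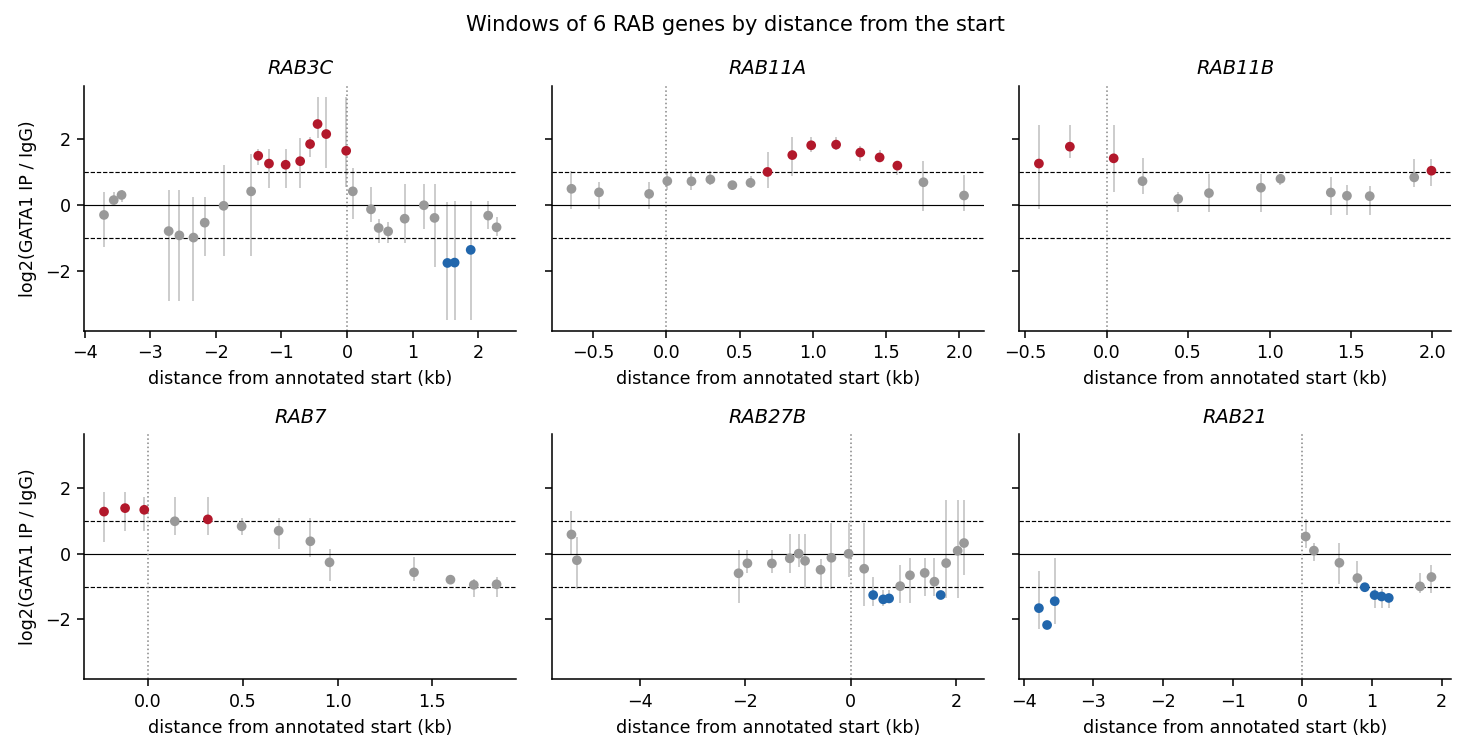
Points are 3-probe windows within 6000 bp of the annotated start for RAB3C, RAB11A, RAB11B, RAB7, RAB27B and RAB21 (x axis, distance in kb; y axis, log2 of GATA1 IP over IgG), grey lines span the 3 probes, and red and blue mark windows past the 2-fold limits. RAB3C and RAB11A show a run of neighboring enriched windows up to 2.47 and 1.84, whereas RAB21 falls to -2.17.

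Of the 15 RAB genes of the early and recycling endosome, 8 had an enriched window and 8 a depleted one (53.3% each, against 57.1% and 52.9% of all genes), with a median highest window of 1.07. RAB11A and RAB11B, which return cargo from recycling endosomes to the surface, were the most uniformly high. RAB11A had no window below 0.29, 7 of its 17 windows were enriched, and these joined into 1 stretch of 1233 bp. Its highest window, 1.84 at 1159 bp downstream of the start (chromosome 15, 63949816 to 63950203), had probes from 1.67 to 2.07. RAB11B had no window below 0.19 and peaked at 1.78 just upstream of the start, at -226 bp (chromosome 19, 8360856 to 8361360). The center probe of that window read 17494.5 in the IP and 3222.45 in the IgG, and the window was brighter than 99.2% of the windows of its array. In both genes every window was thus above the array median, and RAB25, their epithelial relative, reached 0.96.

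RAB31, an endosome and trans-Golgi RAB of the RAB5 branch, peaked at 2.15 in the promoter at -1572 bp, with 7 enriched windows over 2216 bp and a lowest window of -1.30. RAB5A, RAB5B and RAB5C, which drive fusion of early endosomes, had highest windows of 1.07, 1.45 and 0.86. RAB15, an endosomal RAB best known from neurons, reached 1.51 with probes from 0.40 to 3.28, and RAB35 and RAB17 reached 1.39 and 0.88. RAB4A and RAB4B, which serve rapid recycling, had 0.23 and 1.15, but RAB4A was covered by 2 annotated probes. The paralogs of these families therefore fell on different sides of the limit.

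Other endosomal RAB genes leaned to the IgG. RAB21, which moves integrins through endosomes, had 7 of 13 windows depleted, a mean of -0.95 and a lowest window of -2.17 at -3663 bp, although its start windows averaged 0.31. RAB14, of the trans-Golgi and endosomes, had a lowest window of -1.89, and RAB5A had one of -1.87 at -2865 bp in addition to its enriched windows. RAB22A, of early endosomes, had the lowest maximum of all, 0.03, and a mean of -0.74 over 15 windows.

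The biosynthetic RAB genes, which act at the endoplasmic reticulum and the Golgi apparatus, had an enriched window in 10 of 14 genes (71.4%, against 57.1% of all genes) and a depleted one in 7 (50%, against 52.9%), with a median highest window of 1.31. RAB41, a RAB6 relative, held the highest RAB window, 3.04, but this window lay downstream of the gene at 3319 bp from the start and contained a probe not annotated to it. Its probes spread from 1.77 to 4.54 and it was brighter than only 3.70% of the windows of its array. With windows wholly annotated to the gene, the highest window of RAB41 was 0.90, and after normexp it was 0.38. RAB33A, paralog of the Golgi RAB RAB33B, had 15 of 42 windows enriched and peaked at 2.38 at -5418 bp in a divergent promoter (chromosome X, 129025757 to 129026109), and 24 of its 42 probes are also annotated to the neighbor PDCD8. The longest enriched stretch of RAB33A spanned 3832 bp, whereas its start windows averaged 0.25. A further 6 enriched windows of RAB33A flanked the start, at -897 to -523 bp and at 725 to 1106 bp, and reached 1.56. RAB33B reached 1.34 in a window whose probes ran from -0.63 to 2.52.

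RAB1A and RAB1B, which carry cargo from the endoplasmic reticulum to the Golgi, peaked at 1.41 and 1.25. RAB2 reached 1.32, RAB6A and RAB6B reached 1.09 and 1.35, and RAB36 reached 1.60 far inside the gene. RAB43 reached 1.30. RAB2B, RAB18, RAB30 and RAB34 stayed below the limit at 0.77, 0.67, 0.49 and 0.97, so the paralogs RAB2 and RAB2B fell on different sides of it.

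The RAB genes of late endosomes and lysosomes had an enriched window in 5 of 6 genes (83.3%, against 57.1% of all genes) and a depleted one in 4 (66.7%, against 52.9%). Their median highest window was 1.5, the highest of the role groups. They also had the most windows, a median of 30.5 per gene, against 17 to 26.5 in the other role groups. After normexp RAB7 and RAB9A reached 1.48 and 1.16. RAB9B, RAB38 and RAB24 then fell below the limit, at 0.85, 0.84 and 0.87, and RAB32 stayed below it at 0.62. RAB7, the main RAB of late endosomes, had a maximum of 1.39 at -119 bp (chromosome 3, 129927422 to 129927680), where the center probe read 7104.37 in the IP and 2345.14 in the IgG. All 6 RAB7 windows within 500 bp of the start lay between 0.83 and 1.39, and none of its 31 windows was depleted. RAB9A and RAB9B, which return receptors from late endosomes to the Golgi, had maxima of 1.94 and 2.32 and minima of -2.62 and -2.81. In RAB9B 9 windows were enriched and 23 depleted of 59, and in RAB9A 5 were enriched and 15 depleted of 61. The extreme windows of both genes were dim. The maximum and minimum of RAB9A were brighter than 5.46% and 0.53% of the windows of its array, and those of RAB9B than 1.67% and 0.69%. RAB38 and RAB32, the RABs of lysosome-related organelles, had highest windows of 1.62 and 0.59, but in windows above the median intensity the highest of RAB38 was -0.72. RAB24, an autophagy RAB, reached 1.00.

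RAB genes that act at the plasma membrane and the cilium had an enriched window in 5 of 6 genes (83.3%, against 57.1% of all genes) and a depleted one in 4 (66.7%, against 52.9%), with a median highest window of 1.12. RAB10, which takes part in exocytosis, peaked at 1.55 at -530 bp and had 6 of 18 windows enriched and none depleted. RAB8A and RAB8B, which deliver membrane to the surface and the cilium, reached 1.19 and 1.05, and RAB13, of tight junctions, reached 1.35. RAB28 and RAB23, both ciliary RABs, reached 1.00 and 0.55. Of the 9 genes outside these groups 6 had an enriched window (66.7%, against 57.1% of all genes), led by RAB19B at 1.71, RAB39B at 1.69 and RAB40C at 1.68. RAB20, RAB39 and RAB40A reached 1.51, 1.26 and 1.05, and RAB40B, RAB12 and RAB42 stayed at 0.94, 0.80 and 0.16. The RAB19B maximum lay in a divergent promoter, where 20 of its 23 probes are also annotated to SLC37A3, and its own start windows averaged -1.05, the lowest of the RAB genes.

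**Figure D3:**
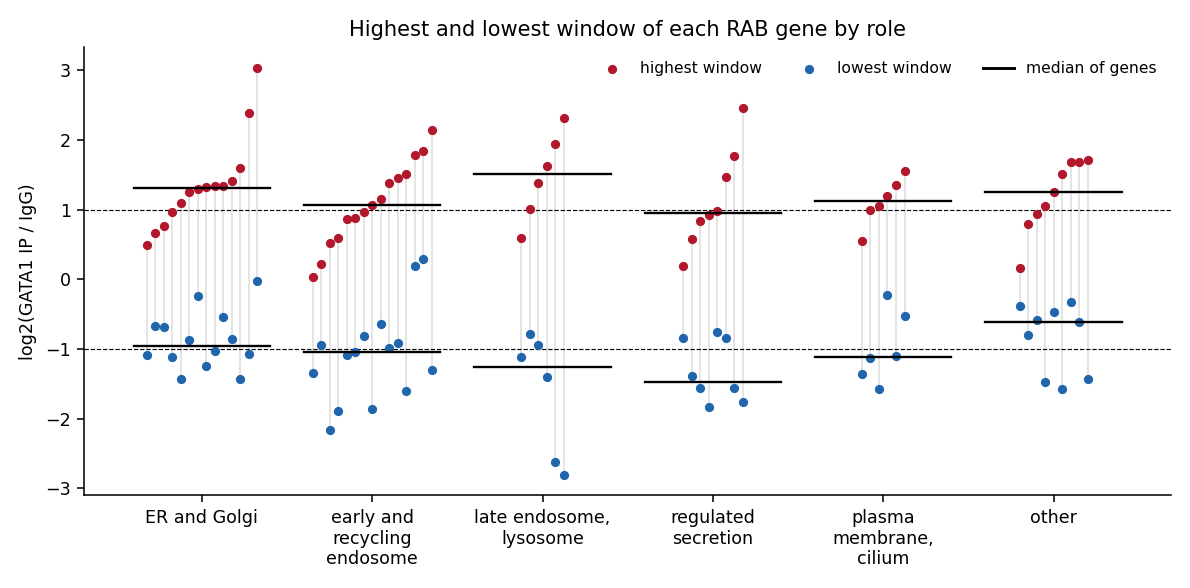
Each grey line joins the highest (red) and lowest (blue) window of 1 RAB gene, grouped by role, on log2 of GATA1 IP over IgG, with black bars at the median of the genes and dashed lines at the 2-fold limits. The median highest window runs from 0.95 for regulated secretion to 1.5 for late endosomes and lysosomes, and the groups overlap widely. The late endosome and lysosome genes also have the most windows, a median of 30.5 per gene.

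On chromosome X all 6 RAB genes (RAB9A, RAB9B, RAB33A, RAB39B, RAB40A and RAB41) had an enriched window, but so did 75.8% of the 641 genes of this chromosome. Their median highest window was 2.13, against 1.51 for the chromosome. Of these 6 genes, RAB9B, RAB39B, RAB40A and RAB41 were below the limit after normexp, at 0.85, 0.98, 0.26 and 0.38.

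A further question was where along the genes the RAB windows were enriched. Within 500 bp of the start, 41 of 273 RAB windows (15.0%) were enriched and 4 (1.47%) were depleted, whereas over all genes these shares were 10.4% and 4.12%. Farther away the RAB shares were 9.86% and 9.44%, and those of all genes were 6.97% and 10.9%. The enriched windows near the start were also brighter, with 29 of 41 above the median intensity of their array, against 55 of 121 farther away. The brightness of uncalled windows near the start is not given here. Depleted RAB windows were most frequent between 4000 and 2000 bp upstream, where 20.1% were depleted, against 14.6% over all genes. In divergent promoters 17 of 76 RAB windows (22.4%) were enriched, and 10.0% of all such windows were. All 17 belonged to RAB33A (11 of 24) and RAB19B (6 of 14), whose probes there are shared with PDCD8 and SLC37A3, and 0 of the 38 divergent promoter windows of the other 9 RAB genes were enriched.

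**Figure D4:**
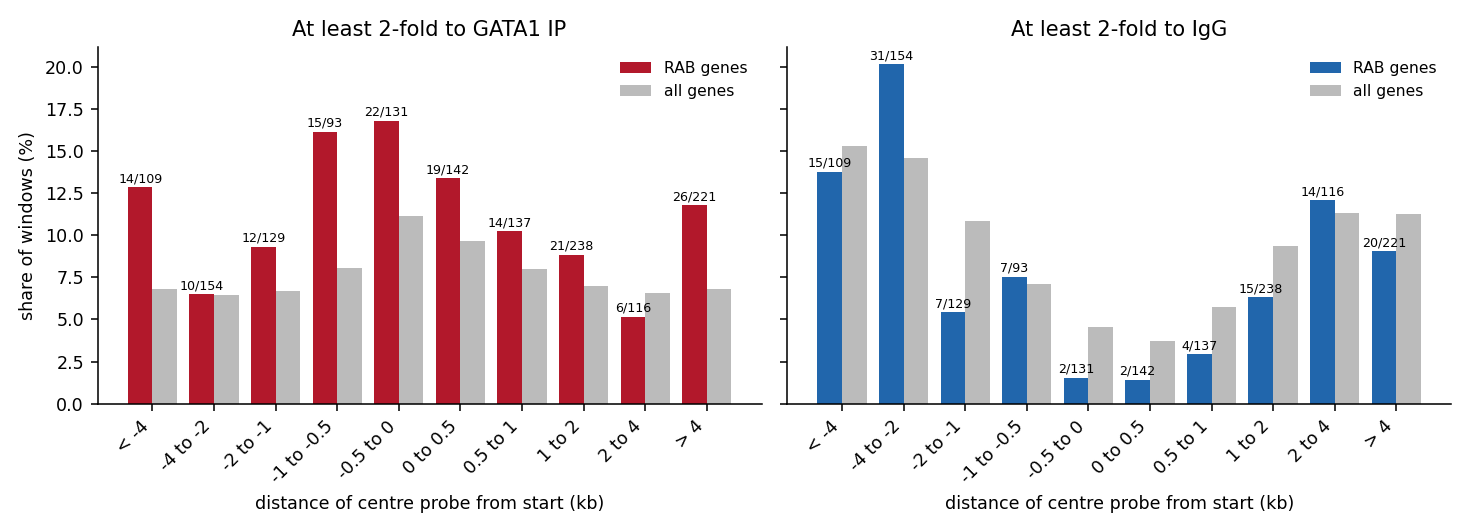
Bars give the share of windows (%) by distance of the center probe from the annotated start (kb), for RAB genes in color and for all genes in grey, on the IP side (left) and the IgG side (right), with counts above the RAB bars. Depleted windows are rarest within 500 bp of the start in both sets, 1.47% for RAB genes and 4.12% for all genes.

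By gene, 19 of the 57 RAB genes with a window near the start (33.3%) were enriched there, against 24.5% of all genes, and 4 (7.02%) were depleted there, against 9.3%. The 4 depleted genes were RAB13, RAB19B, RAB27A and RAB27B, of which RAB13 was enriched there as well. Their start windows averaged -0.25, -1.05, 0.04 and -0.46, in that order. The lowest start window of RAB27A was brighter than only 8.47% of the windows of its array. The mean of the start windows was highest in RAB39B (1.32), a RAB mutated in X-linked intellectual disability, followed by RAB7 (1.14) and RAB11B (1.08). No window of RAB39B reached the median intensity of its array, and its highest window fell from 1.69 to 0.98 after normexp. RAB10, RAB9B, RAB3C and RAB20 averaged 0.99, 0.98, 0.98 and 0.94, and RAB9A, RAB4B, RAB5A, RAB1A and RAB5B averaged 0.87, 0.86, 0.83, 0.82 and 0.76. The means of RAB10, RAB9B, RAB3C and RAB20 differed by less than the spread among the start windows of each of these genes. That spread ran from 0.87 to 1.17 in RAB9B and from -0.69 to 2.47 in RAB3C.

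The remaining start-enriched genes were RAB24, RAB31, RAB36, RAB33B, RAB2, RAB40A and RAB13, with start maxima of 1.00, 1.29, 1.02, 1.03, 1.32, 1.05 and 1.04. In these genes the start means ran from 0.69 in RAB24 to -0.25 in RAB13. RAB13 shares 7 of its probes with RPS27. The lowest start means after RAB19B were those of RAB35 (-0.55), RAB27B (-0.46), RAB25 (-0.41) and RAB22A (-0.35). The median start mean was 0.34 for RAB genes and 0.28 for all genes.

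RAB promoters with and without a GATA match overlapped in their start values. RefSeq promoters were found for 47 RAB genes, 67 promoters in all, and 20.9% of them held one of the GATA forms above, against 25.0% of the 35116 promoters in the table. Of the 13 start-enriched RAB genes with a promoter 3 held a match (RAB10, RAB11B and RAB40A), and of the 32 others with a start value 9 did. The median start mean was 0.21 for RAB genes with a match and 0.34 for those without, and over all genes these medians were 0.20 and 0.30. The bases printed for RAB7, without a match, belong to a gene with a start mean of 1.14, while RAB3B, with 2 matches, averaged 0.01. GC content was 66.7% in the median RAB promoter and 63.0% in all. No promoter was found for RAB1A, RAB2, RAB12, RAB15, RAB20, RAB26, RAB33A, RAB33B, RAB36, RAB37, RAB38 and RAB39B.

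The partners of the RAB proteins were read by the same rules. Of 36 RAB regulators (exchange factors, GTPase-activating proteins and the prenylation machinery) 24 had an enriched window (66.7%, against 57.1% of all genes) and 12 a depleted one (33.3%, against 52.9%), with a median highest window of 1.22. The highest were TBC1D4 (3.53), a GTPase-activating protein of glucose transporter traffic, TBC1D15 (2.58), which acts on RAB7, and RABGGTB (2.02), a subunit of the enzyme that prenylates RAB proteins. Their highest windows lay far from the start, at -4805, -4814 and 7839 bp. Enriched and depleted windows numbered 7 and 3 in TBC1D4, 2 and 1 in TBC1D15, and 4 and 0 in RABGGTB. Of 28 RAB effectors 21 had an enriched window (75.0%, against 57.1% of all genes) and 16 a depleted one (57.1%, against 52.9%), with a median of 1.25. They were led by RPH3AL (3.08), SYTL4 (2.71) and EXPH5 (2.59), which bind RAB3 or RAB27 proteins on secretory granules. These 3 maxima lay at -4618, 1303 and 26 bp from the start. RPH3AL had 7 enriched and 3 depleted windows, and EXPH5 also had 7 and 3. SYTL4 had more depleted windows (13) than enriched ones (8), and its windows averaged -0.22. Of 38 genes of the platelet granule machinery 22 had an enriched window (57.9%, against 57.1% of all genes) and 14 a depleted one (36.8%, against 52.9%), with a median of 1.08. They were led by UNC13B (2.48 at 154 bp), NBEA (2.20 at -1639 bp) and AP3S1 (2.09 at 3257 bp). UNC13B had 11 enriched and 6 depleted windows, and AP3S1 had 5 and 2. NBEA had more depleted windows (5) than enriched ones (3), and its windows averaged -0.36. Brightness and normexp values of the partner windows are not given here.

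The size of the highest windows depended on how the background was treated. After normexp the highest RAB windows were RAB3C at 2.08, RAB11B at 1.91, RAB11A at 1.84, RAB33A at 1.77 and RAB31 at 1.60, and 28 RAB genes (48.3%) had an enriched window, against 33.1% of all genes. RAB24, RAB28, RAB35, RAB38, RAB39, RAB39B, RAB40A, RAB41, RAB6A, RAB8B and RAB9B lost the call, and RAB34 and RAB3D gained it. Of the 37 enriched genes, 18 were called in all 10 of the settings that kept the 2-fold limit, among them RAB3C, RAB7, RAB10, RAB11A, RAB11B, RAB31, RAB33A and RAB37. The same count over all genes is not given here, so the 18 cannot be set against the array background.

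**Figure D5:**
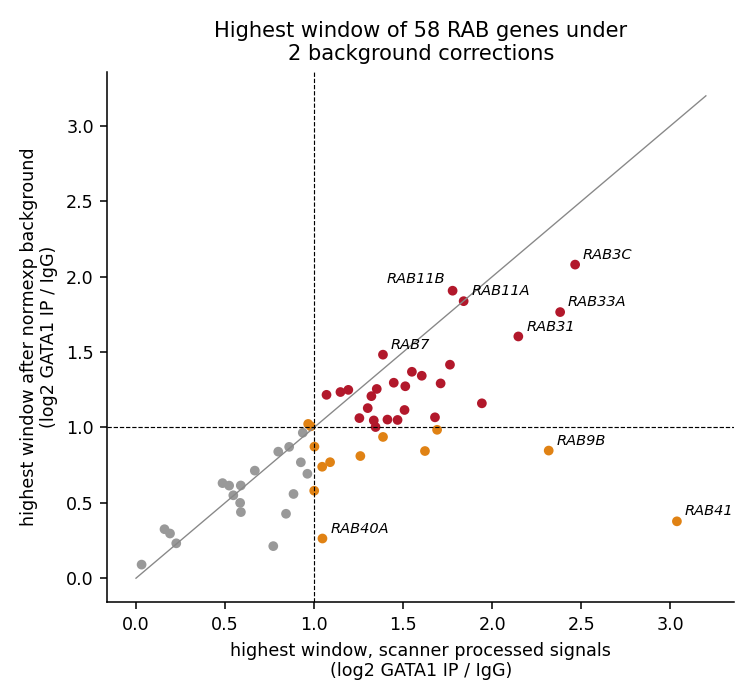
Each point is a RAB gene, with its highest window (log2 of GATA1 IP over IgG) from the scanner's processed signals on the x axis and after normexp background correction on the y axis, and dashed lines mark the 2-fold limit. Red genes passed under both and orange genes under 1 of them, and RAB41 falls from 3.04 to 0.38 while RAB11A stays at 1.84.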

How the data were processed

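ChIP-on-chip was measured on 2 arrays of Meg-01 chromatin. The authors deposited scanner output made, per the file headers and the submitters' notes, with Agilent Feature Extraction 9.5.3.1: raw mean and background intensities, and processed intensities with a spatial fit subtracted and a linear dye correction. The deposited series table holds log10 ratios of Cy5 over Cy3. Here log2(IP/IgG) was taken from the processed intensities, centered on each array's median, without control spots, non-uniform spots and probes that failed the background limit in both channels, and averaged in 3-probe windows. The limit was 2-fold. The SD over all probes was 0.97 on each array, and that of a control probe spotted 480 times was 0.05 on chIP1 and 0.04 on chIP2, which covers spotting and scanning only. This control was bright, with median processed intensities of 4070 (IP) and 5039 (IgG) on chIP1 and 3219 and 4220 on chIP2. Its SD therefore does not describe the dim windows. The number of arrays limits the precision.

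Values in full were given for the 10 RAB genes with the highest window, the 5 with the lowest, the secretion group and genes enriched near the start, and for the top 3 of each partner list. Any other gene was named after its values were seen. The members and lists were chosen with earlier results of these data known. The window code was tested on simulated data. Normexp (limma 3.58.1 in R 4.3.3, offset of 50), loess and further settings were tried as alternatives. The study's own peak calls were not used here.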

Additional observations from a re-analysis of the deposited data

How the results depend on the processing

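No paired analysis was possible because the arrays share no probe, so there were no pairs of samples to test. Loess, the series table, both filters on dim probes, removal of the trend on distance and windows wholly annotated to the gene left all 5 summary values within 1.5 times (counts) or 0.1 (median) of the main ones. After normexp, the median highest window of all genes fell by 0.26, and 14 RAB genes had a depleted window (24.1%, against 23.9% of all genes). Of the RAB windows 83 were enriched (5.54%, against 3.25% of all windows) and 32 depleted (2.14%, against 2.50%). The median highest window was 0.97, against 0.83 for all genes. With single probes 49 genes (83.1%, against 81.1% of all genes) and 223 probes (13.3%, against 14.4% of all probes) were depleted. The median was 1.87, against 1.73 for all genes. Windows of 5 probes gave 24 enriched genes (41.4%, against 34.1% of all genes) and 16 depleted ones (27.6%, against 33.5%). They gave 101 enriched windows (7.58%, against 4.99% of all windows) and 71 depleted ones (5.33%, against 6.97%). The median was 0.87, against 0.81 for all genes. At 1.5-fold 48 genes were depleted (82.8%, against 78.4% of all genes). At that limit 337 windows were enriched (22.5%, against 19.3% of all windows) and 287 depleted (19.2%, against 21.0%). At 3-fold 14 genes were enriched (24.1%, against 20.6% of all genes) and 8 depleted (13.8%, against 22.3%). The 3-fold windows were 36 enriched (2.40%, against 1.79% of all windows) and 35 depleted (2.34%, against 2.74%). Above the median intensity, a setting added after the data were seen, 13 genes were depleted (23.6%, against 26.0% of all genes). There 84 windows were enriched (9.59%, against 5.87% of all windows) and 24 depleted (2.74%, against 3.90%). The median was 0.98, against 0.81 for all genes. Of 576 highest windows of single RAB genes in other settings, 517 kept their side of the 2-fold limit and 9 had the other sign, which among enriched genes was RAB38 alone (-0.72 above the median intensity). Why the settings differed was not tested. Raw signals were close to background: the median was 543 (IP) and 412 (IgG) on chIP1 and 544 and 440 on chIP2, against 342 and 303, and 340 and 303, for negative controls.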
